A study of Mus musculus with 12 samples.

Results

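Lysosomal cathepsins are the peptidases that break down proteins in the acid interior of the lysosome, and 10 of their genes were examined in the testis of mice lacking TAp73, the form of the p53 family member Trp73 that carries the transactivation domain. The 10 genes were the aspartic peptidase Ctsd, the serine carboxypeptidase Ctsa, the cysteine endopeptidases Ctsb, Ctsl, Ctsk, Ctss and Ctsf, and the cysteine exopeptidases Ctsc, Ctsh and Ctsz. Every array probe whose accession belongs to one of these symbols was taken, which gave 12 of the 39429 probes on the array, with a second probe for Ctsa and for Ctsd. All 12 probes were well above the local background on all 12 arrays, and all 10 genes were among the 25029 genes tested.

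The arrays came from 6 male C57BL/6J mice, each of which gave a germ cell and a Sertoli cell fraction of the testis, hybridised singly to 1-colour Agilent arrays. The 4 groups were TAp73 knockout (KO) germ cells, control germ cells, KO Sertoli cells and control Sertoli cells, with 3 mice each. The KO mice were mouse 120 (4 months old), mouse 86 and mouse 72 (both 8 months old). The controls, all of wild-type source name, were mouse 99 (5 months old, also titled WT), mouse 73 and mouse 74 (both 8 months old and titled het). Slide 1 held mice 120 and 99, slide 2 mice 86 and 73, and slide 3 mice 72 and 74. Values below are levels, the log2 signal of a probe minus the 75th percentile of its array, and are listed in the order of slides 1, 2 and 3. A difference is that of 2 group means on this log2 scale. A gene was said to rise or fall where the adjusted p of limma, after Benjamini-Hochberg correction over the 25029 genes, was under 0.05.

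Cathepsins are made as inactive precursors, carried to the lysosome mainly by mannose 6-phosphate receptors, activated by cleavage at low pH, and held in check by cystatins and other inhibitors. In the testis, Sertoli cells engulf dying germ cells and the residual bodies shed by spermatids and degrade them in lysosomes, and macrophages of the interstitium are a further site of high lysosomal peptidase activity. Many lysosomal genes carry a palindromic element that contains the E-box CACGTG in their promoters, which the transcription factors Tfeb and Tfe3 bind.

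The 75th percentile of the processed signal lay between 1355 and 5350 over the arrays, and no probe outside the control spots was saturated. The targeted gene Trp73 had 3 probes, and on the probe tested its level in germ cells was -1.91, -2.79 and -2.35 in KO mice, against -4.28, -3.10 and -2.68 in control mice (1.005 ± 0.50, limma adjusted p = 0.754). On another probe its levels were -2.76, -2.56 and -3.29 in KO germ cells, against -9.40 (not well above background), -3.63 and -4.15 in control germ cells, and the KO arrays of the Sertoli fraction were also above all control arrays. The remaining probe was higher in KO than in control germ cells on each slide. The signal of the targeted gene was not lower in KO than in control germ cells on any probe of any slide. Neither the deleted exons nor the places of the probes are given in the sources used here, so these signals check no label. The fractions were checked against markers. Spermatid and spermatocyte markers were far below their germ cell levels in the Sertoli fraction, with median differences of -8.49 and -9.43 on the log2 scale in control mice. Of all genes 39.8% rose and 36.5% fell in the Sertoli fraction of control mice. Of 10 Sertoli cell markers 4 rose and 5 fell there, which is near those shares. Fshr, the receptor for follicle-stimulating hormone, was not well above background on any of the 6 arrays of that fraction. Fibroblast markers (median 7.32, 7 of 7 rose) and peritubular myoid markers (median 5.78, 6 of 6 rose) were higher in it. The mean level of the Sertoli cell markers lay between 0.94 and 1.49 in KO germ cells, against -0.14 and 0.17 in the KO Sertoli fraction. In control mice it lay between 0.40 and 0.78 in germ cells, against -0.40 and 0.10 in the Sertoli fraction. The names Sertoli fraction and germ cells are therefore used for the labels only.

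Promoter sequences are shown for Ctsk, Ctss and Ctsd, as the 250 bases before the RefSeq start of each gene in assembly GRCm38.p6. RefSeq windows of 250 bases before and 50 after the start were at hand for 8 of the 10 genes, as 9 windows, and no window was used here for Ctsb and Ctsh. Capitals mark matches on either strand to the E-box CACGTG, to the longer palindrome TCACGTGA that contains it, and to GAGGAAGT, a sequence of the kind bound by the myeloid ETS factor PU.1. Ctsd lies at chr7:142387828-142388077 on the minus strand, Ctsk at chr3:95498960-95499209 and Ctss at chr3:95526536-95526785, both on the plus strand.
Ctsd: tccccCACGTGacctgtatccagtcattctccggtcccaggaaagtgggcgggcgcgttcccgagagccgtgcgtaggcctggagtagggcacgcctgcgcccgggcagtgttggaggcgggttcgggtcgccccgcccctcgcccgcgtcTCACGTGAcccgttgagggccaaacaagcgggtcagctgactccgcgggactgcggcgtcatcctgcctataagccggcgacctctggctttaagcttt
Ctsk: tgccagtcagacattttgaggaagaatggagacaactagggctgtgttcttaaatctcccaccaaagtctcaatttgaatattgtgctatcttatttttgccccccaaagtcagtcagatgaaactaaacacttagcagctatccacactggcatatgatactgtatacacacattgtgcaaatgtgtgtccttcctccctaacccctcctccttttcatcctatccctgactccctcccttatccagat
Ctss: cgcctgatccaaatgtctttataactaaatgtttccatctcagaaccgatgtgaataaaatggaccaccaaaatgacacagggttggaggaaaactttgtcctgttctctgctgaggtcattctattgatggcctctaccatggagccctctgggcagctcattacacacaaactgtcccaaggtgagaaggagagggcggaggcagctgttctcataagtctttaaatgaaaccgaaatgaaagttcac

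The Ctsd stretch holds CACGTG at 245 and 98 bases before the start, the second within TCACGTGA, and 27 CpG dinucleotides. The Ctsk stretch holds none of the 3 motifs and 0 CpG, and that of Ctss holds 4 CpG and a GAGGAAGT match that begins 2 bases before the start and runs past it. The median over the 32851 RefSeq windows is 6 CpG in the same 250 bases. The stretch of Ctsz, which is not shown, holds none of the 3 motifs and 7 CpG. CACGTG was also found in 1 of the 2 windows of Ctsa (2 matches, 12 bases before the start and at base 6 from the start, both within TCACGTGA), in those of Ctsf (79 bases before) and Ctsl (236 bases before), and GAGGAAGT in that of Ctsc (151 bases before). Among all windows of this length 7.15% hold CACGTG, 0.974% TCACGTGA and 3.202% GAGGAAGT. A match describes letters only, and no binding was measured. Ctsk and Ctss are neighbours in the order of protein-coding genes on chromosome 3.

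In the germ cell fraction all 10 cathepsins had a higher mean level in KO than in control mice. Their median difference was 0.84, against -0.04 over all genes tested. Of all genes, 45.5% had a higher mean in KO mice. Ctsk, the collagen-degrading peptidase known from osteoclasts, was the 1 of 10 that rose (2.48-fold), where 0.216% of all genes rose. In 7 of the 10 genes, Ctsa, Ctsb, Ctsd, Ctsf, Ctsk, Ctss and Ctsz, every KO germ cell array lay above every control germ cell array, against 6.58% of all genes. At an unadjusted p under 0.05 limma found 8 of the 10 higher, against 6.11% higher over all genes. The cathepsins were chosen with earlier results of these data known, so these counts describe them and are not a test.

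Ctsk had levels of -2.04, -1.55 and -1.83 in KO germ cells, against -2.84, -3.20 and -3.31 in control germ cells. The arrays of the KO mice were close together and all above those of the controls, and mouse 99 was the highest control. The difference was 1.31 ± 0.21 (log2, SE, n = 3 each; limma adjusted p = 0.0423). This call is close to the threshold and was kept in 4 of 19 alternative settings and lost in 15, with adjusted p-values between 0.0217 and 0.405 and differences between 1.03 and 1.57. Leaving out any 1 of the 6 mice ended it, and it was also lost without both mice titled het and with slide as a block.

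Ctss, the peptidase that trims the invariant chain in antigen-presenting cells, showed the widest difference and the widest spread. Its levels were -2.25, -0.36 and -1.46 in KO germ cells, against -3.38, -3.84 and -3.28 in control germ cells. The groups did not overlap, but the KO mice spanned nearly 2 log2 units, with mouse 86 highest and mouse 120 lowest. The difference was 2.15 ± 0.55 (4.43-fold, 95% confidence interval 0.94 to 3.35) and did not pass the adjusted test in limma (adjusted p = 0.202).

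Ctsz, a carboxypeptidase, had levels of -0.68, -0.29 and -0.55 in KO germ cells, against -1.74, -1.65 and -1.37 in control germ cells. The groups were separate by more than the spread within either, and the difference was 1.08 ± 0.20 (limma adjusted p = 0.0684). Ctsd, the main aspartic peptidase of the lysosome, had levels of 1.86, 2.17 and 1.92 in KO germ cells, against 1.22, 1.01 and 1.26 in control germ cells. These groups were also separate, by 0.82 ± 0.16 on average (limma adjusted p = 0.0896). Each of these differences passed the threshold in 3 of 19 alternative settings. The second probe of Ctsd scattered widely within each group, with SDs from 0.69 to 2.01, and its difference of 1.79 ± 1.10 did not pass in limma (adjusted p = 0.937 over 30533 probes).

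Ctsb, an abundant endopeptidase that can also act as a dipeptidase from the carboxyl end, had levels of 1.20, 2.17 and 1.86 in KO germ cells, against 0.85, 0.55 and 0.66 in control germ cells. The controls were tightly grouped, while mouse 120 lay well under the other KO mice. The difference was 1.06 ± 0.23 (limma adjusted p = 0.13). Ctsa, which besides its peptidase activity protects beta-galactosidase and neuraminidase in the lysosome, had levels of 0.91, 1.59 and 1.60 in KO germ cells, against 0.78, 0.34 and 0.52 in control germ cells. Mouse 120 again lay nearest to the controls, and the difference was 0.82 ± 0.22 (limma adjusted p = 0.24). The second probe of Ctsa differed by 0.94 ± 0.22 in the same direction (limma adjusted p = 0.175 over 30533 probes).

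The other members differed less or overlapped. Ctsf had nearly the same level in all 3 KO germ cell arrays (0.155 ± 0.0038, SD, n = 3), against -0.375 ± 0.149 in control germ cells, a difference of 0.53 ± 0.20 (limma adjusted p = 0.504). Ctsh, an aminopeptidase, had levels of -0.27, 1.15 and 0.69 in KO germ cells, against -0.17, -0.67 and -0.16 in control germ cells. Mouse 120 lay within the range of the controls for Ctsh, and the difference was 0.86 ± 0.32 (limma adjusted p = 0.498). Ctsc, the dipeptidyl peptidase that activates serine proteases of granulocytes and cytotoxic cells, was among the most scattered. Its levels were -4.22, -4.18 and -3.36 in KO germ cells, against -5.66, -3.81 and -4.22 in control germ cells, with overlapping groups and an interval of the difference from -0.37 to 1.65. Ctsl, an endopeptidase known in rodent testis as a product of Sertoli cells, had levels of 4.21, 5.16 and 4.95 in KO germ cells, against 5.06, 4.23 and 4.37 in control germ cells. For Ctsl the mice of slide 1 ran opposite to those of the other slides, and the interval of the difference ran from -0.44 to 0.88.

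**Figure D1:**
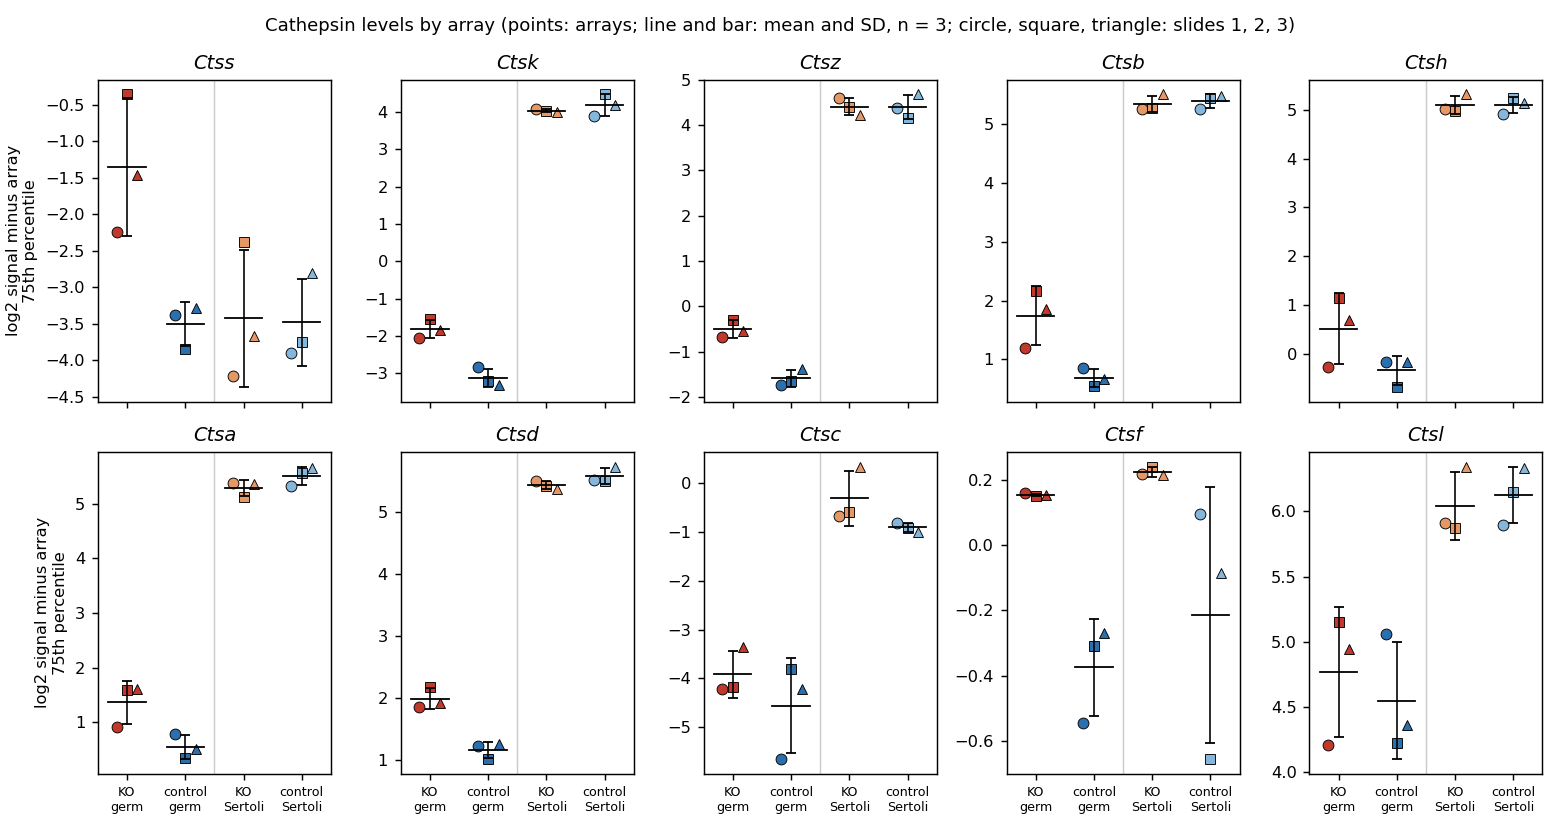
Level of each cathepsin on every array, as log2 signal minus the array's 75th percentile, with 1 panel a gene and its own vertical scale. Points are arrays (circles slide 1, squares slide 2, triangles slide 3), the line and bar are the mean and SD of 3 mice, and KO groups stand left of control groups. KO germ cells lie above control germ cells without overlap in 7 panels, and Ctss is the panel in which the Sertoli fraction is not above the germ cell fraction of KO mice.

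By slide, 8, 9 and 10 of the 10 genes were higher in the KO than in the control germ cells on slides 1, 2 and 3, with medians of 0.67, 1.30 and 0.86. The pair on slide 1 holds the younger mice and the only control titled WT, so age, title and slide cannot be told apart there. Ctsl (-0.85) and Ctsh (-0.10) were the members lower in KO germ cells on slide 1, and Ctsc (-0.38) was the member lower on slide 2. With the 8-month mice alone the median difference of the 10 genes was 1.13, and with mouse 99 as the only control it was 0.83, with Ctsl (-0.29) then lower in KO mice. The 10 of 10 count was 10 under the other alternatives run.

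In the Sertoli fraction, where KO and control mice were compared in the same way, 0 of the 10 cathepsins rose or fell, as did 0% of all genes. Their differences ran from -0.23 (Ctsa) to 0.60 (Ctsc), with a median of -0.02, against a median of -0.10 over all genes. Of the 10 genes 3 were higher in KO mice under this scaling (34.8% of all genes), and 8 of 10 were under quantile normalisation and in the authors' deposited log2 values, so no direction is given for them. At an unadjusted p under 0.05 limma found 1 of the 10 (Ctsf), where 0.643% of all genes (161) were higher at that level, and 595 genes were lower.

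Ctsf in the Sertoli fraction had levels of 0.22, 0.24 and 0.22 in KO mice, against 0.10, -0.66 and -0.09 in control mice. As in germ cells the KO arrays were nearly equal and the controls spread out, and the difference was 0.44 ± 0.20 (limma adjusted p = 0.9997). Ctsc had levels of -0.66, -0.59 and 0.35 in KO mice, against -0.80, -0.91 and -1.002 in control mice. Ctsc and Ctsf were the members without overlap between the groups, where 1.87% of all genes were higher without overlap. Ctsk, the riser in germ cells, had levels of 4.08, 4.03 and 3.99 in KO mice, against 3.89, 4.47 and 4.18 in control mice, and the interval of its difference was -0.61 to 0.32. The intervals of Ctsz (-0.44 to 0.44), Ctsb (-0.56 to 0.47) and Ctsd (-0.50 to 0.21) left out differences of 1 log2 unit or more in either direction. Those of Ctss (-1.15 to 1.26) and Ctsc (-0.40 to 1.61) did not.

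**Figure D2:**
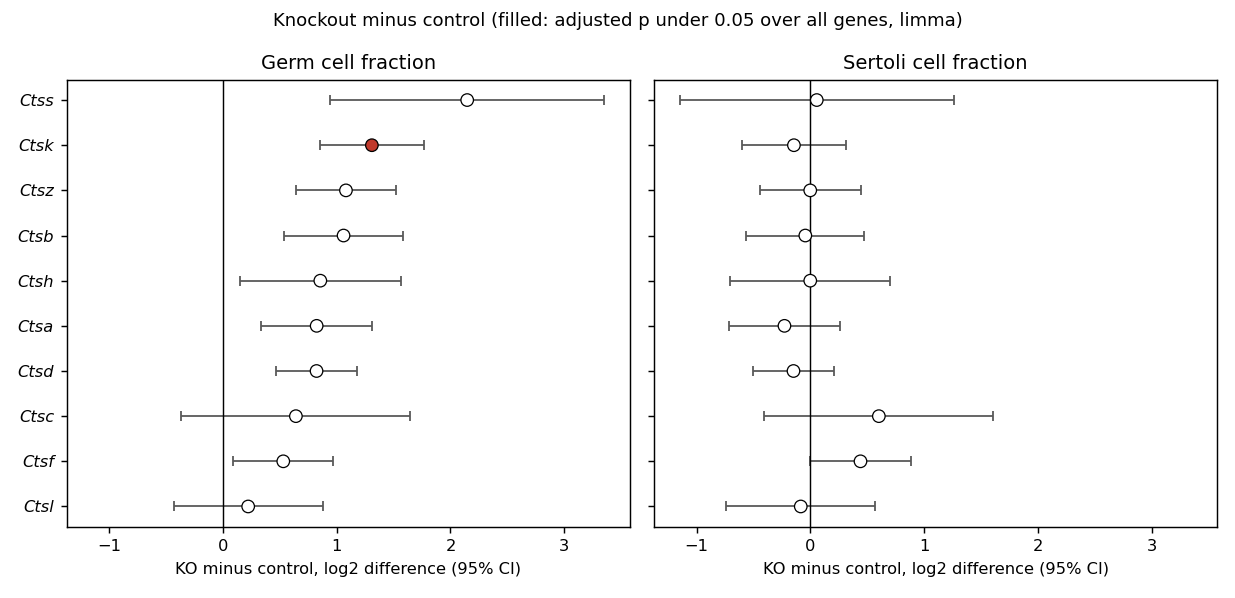
KO minus control difference in log2 of each cathepsin in the germ cell fraction (left) and the Sertoli fraction (right), with 95% confidence intervals from limma. Filled points passed the adjusted test, which is Ctsk in germ cells, and the 10 points on the left are all above 0.

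The difference between the fractions in the effect of the knockout was tested as an interaction. For all 10 cathepsins the KO effect was lower in Sertoli than in germ cells, while it was higher there for 39.5% of all genes. The count includes Ctsc (-0.04) and Ctsf (-0.09), whose signs changed in 6 and 3 of 18 alternative settings, and by slide the effect was higher in Sertoli cells for 2, 2 and 1 of the 10. Of the cathepsins 0 of 10 passed in limma, as did 0.00799% of all genes (2 genes). The smallest adjusted p was that of Ctsk (-1.45 ± 0.29, adjusted p = 0.341), followed by Ctsd (-0.97 ± 0.23, adjusted p = 0.484) and Ctsz (-1.08 ± 0.28, adjusted p = 0.598). At an unadjusted p under 0.05 limma found 6 of the 10, all lower, against 4.09% of all genes. A germ cell array enters both the germ cell comparison and this one, so the counts are not separate evidence.

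**Figure D3:**
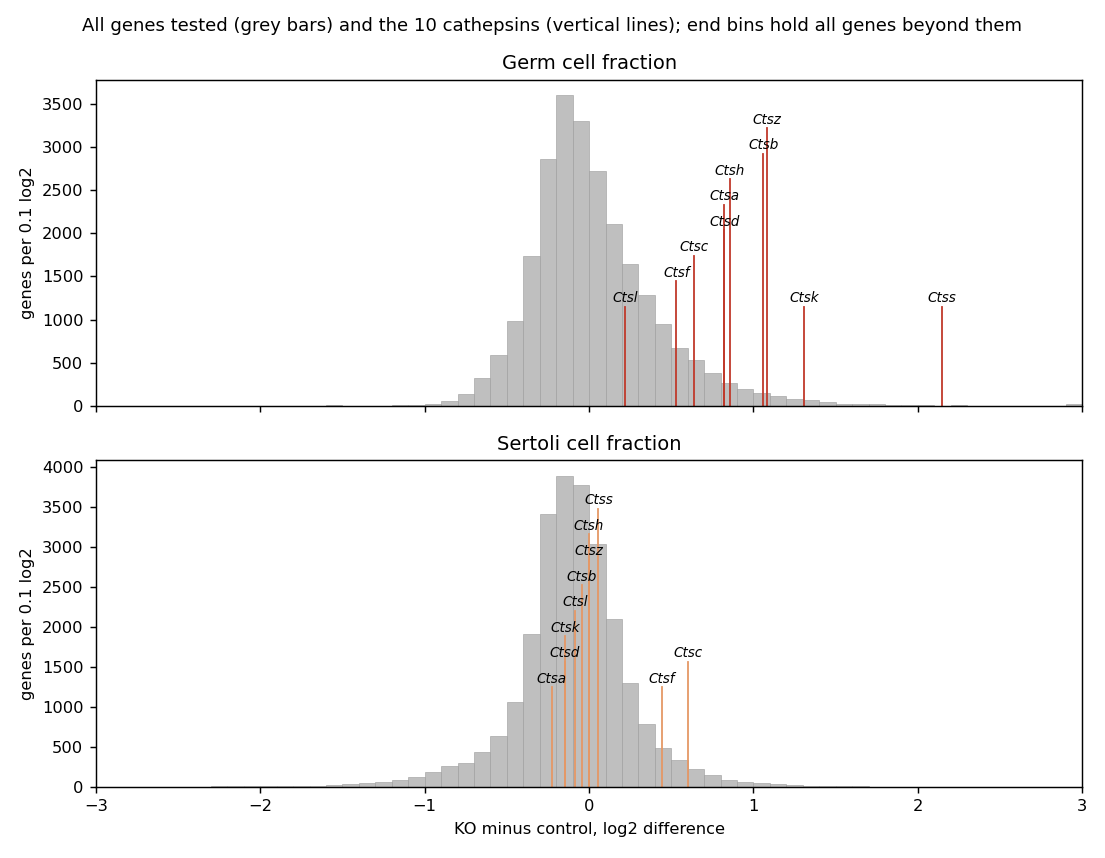
Number of genes per 0.1 log2 of KO minus control difference (grey bars, all 25029 genes tested), with each cathepsin as a coloured vertical line whose height carries no value, for germ cells (top) and the Sertoli fraction (bottom). In germ cells the 10 lines lie between 0.22 (Ctsl) and 2.15 (Ctss), and in the Sertoli fraction between -0.23 and 0.60.

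The comparison of the fractions within each genotype shows where the cathepsin transcripts were found. In KO mice 8 of the 10 genes rose in the Sertoli against the germ cell fraction (37.9% of all genes rose) and Ctss fell (37.1% of all genes fell), with a median of 3.61. In control mice 8 of the 10 rose (39.8% of all genes rose and 36.5% fell), with a median of 4.56. The same 8 genes, Ctsk, Ctsz, Ctsh, Ctsa, Ctsb, Ctsd, Ctsc and Ctsl, rose in both genotypes. Since the fractions differ in most genes, these counts are read against those shares. Of all calls between the fractions 50.5% were higher in the Sertoli fraction in KO mice (64.7% under median scaling) and 52.1% in control mice (63.2% under median scaling).

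Ctsk had the widest difference, 5.84 ± 0.21 in KO mice and 7.29 ± 0.21 in control mice (limma adjusted p = 9.68e-10 in KO and 2.41e-10 in control mice). That is a ratio of 57.3 in KO mice and 157 in control mice. Ctsz followed with 4.91 ± 0.20 in KO mice and 6.00 ± 0.20 in control mice, and Ctsh with 4.58 ± 0.32 in KO mice and 5.44 ± 0.32 in control mice. For all 3 genes the 6 arrays of the Sertoli fraction lay far above the 6 arrays of germ cells. Ctsa, Ctsb and Ctsd differed by between 3.44 and 3.93 in KO mice and by between 4.41 and 4.98 in control mice. Ctsc differed by 3.62 ± 0.46 in KO mice and 3.66 ± 0.46 in control mice, and Ctsl by 1.27 ± 0.30 in KO mice and 1.58 ± 0.30 in control mice. The Ctsl difference in KO mice was 0.35 and no longer called after quantile normalisation (limma adjusted p = 0.233) and in the authors' deposited log2 values (adjusted p = 0.235). In control mice the Ctsl difference was 0.67 and still past the threshold in both of these, and with mouse 99 as the only control it was 0.84 and no longer called (limma adjusted p = 0.177). Both second probes, of Ctsa and Ctsd, also rose in both genotypes.

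Ctsf and Ctss did not follow. Ctsf differed by 0.07 (interval -0.37 to 0.51) in KO mice and by 0.16 (interval -0.28 to 0.60) in control mice, neither past the threshold. Both passed under median scaling (0.92 in KO mice and 0.83 in control mice), which moved the median of all genes to 0.94 in KO mice and 0.88 in control mice. The Ctsf difference in control mice also passed with mouse 99 as the only control (0.64, limma adjusted p = 0.0483). Ctss had levels of -4.22, -2.39 and -3.67 in the Sertoli fraction of KO mice, against -2.25, -0.36 and -1.46 in their germ cells. In each KO mouse the Sertoli fraction was the lower of the pair, by 1.98, 2.03 and 2.21, and the fall of 2.07 ± 0.55 passed in limma (adjusted p = 0.00495), but not under median scaling. In control mice Ctss had levels of -3.90, -3.75 and -2.80 in the Sertoli fraction, against -3.38, -3.84 and -3.28 in germ cells, and the 2 fractions overlapped (interval of the difference -1.19 to 1.23). The difference between the genotypes in this contrast is the interaction given above, which did not pass for Ctss (-2.09 ± 0.77, limma adjusted p = 0.951).

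**Figure D4:**
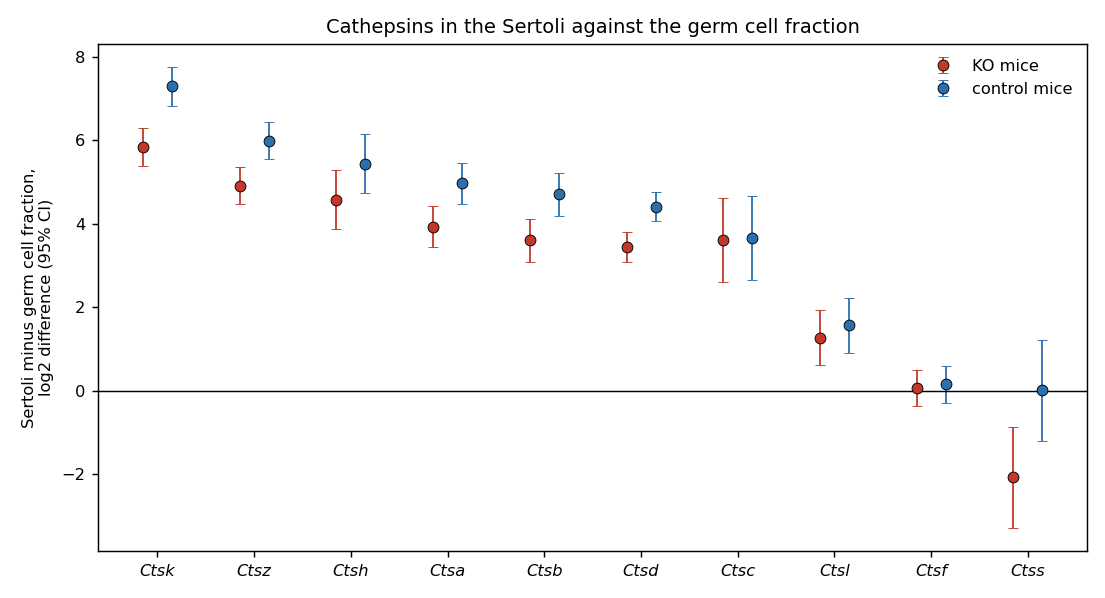
Sertoli minus germ cell difference in log2 of each cathepsin in KO mice (left point of each pair) and control mice (right point), with 95% confidence intervals from limma. Ctsk to Ctsl lie above 0 in both genotypes, Ctsf lies at 0, and Ctss lies below 0 in KO mice.

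Each cathepsin's pattern was set beside those of the other cathepsins and of 15790 named genes, as the root mean square of the differences between 2 patterns over the 12 arrays after each gene was centred on its own mean. All 12 arrays share the split between the fractions, so closeness mostly reflects that split. Among the cathepsins Ctsa and Ctsb were the closest pair (0.209), then Ctsb and Ctsd (0.232), while Ctss and Ctsk, neighbours on the chromosome, were 3.85 apart. The 3 genes nearest to Ctss were Lilrb4a (0.351), Tyrobp (0.360) and Ms4a7 (0.436), the first an inhibitory receptor of myeloid cells and the second a signalling adaptor of myeloid and natural killer cells. The nearest to Ctsk were Anxa3 (0.145), Mical1 and Cyba, and those to Ctsz were Tmbim1 (0.198), Ltbp3 and Grn, the precursor of lysosomal granulins (0.214). Ctsd was nearest to Zfp358 (0.145), Ssh3 and Smtn, Ctsa to Tmem238 (0.135), Elovl1 and Prrc2b, and Ctsb to Tmem164 (0.148), Txn1 and Cebpd. Ctsh was nearest to C77080 (0.176), Elovl6 and Kazn, Ctsl to Eif2ak4 (0.130), Fbxo17 and Zfp185, and Ctsf to Sestd1 (0.162), Tmie and Dffb. Ctsc had Zfp449 (0.328) and Ero1a among its closest. The nearest genes of Ctsc and Ctss were farther away than those of the other cathepsins, and that of Ctss was the farthest.

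Other genes of the lysosome were followed in germ cells as lists. Of 4 tested genes among the other cathepsins and legumain none passed in limma. Their median difference was -0.02, with 2 higher and 2 lower in KO mice. The highest was Lgmn, the asparaginyl endopeptidase that processes several cathepsins, which differed by 0.93 ± 0.19 (limma adjusted p = 0.106). It was the 1 of the 4 that was higher without overlap, where 6.58% of all genes were. Of 35 other lysosomal hydrolases 0 rose or fell, 30 had a higher mean in KO mice (45.5% of all genes) and the median difference was 0.28. At an unadjusted p under 0.05, 8 of the 35 were higher (6.11% of all genes). The 13 genes of enzyme transport had a median of 0.09 and none passed, and 3 were higher at an unadjusted p under 0.05. Scarb2, the receptor that carries beta-glucocerebrosidase, differed by 1.19 ± 0.21 (limma adjusted p = 0.0644) and Psap, the precursor of saposins, by 0.92 ± 0.21 (limma adjusted p = 0.155).

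Lysosomal membrane proteins (15 tested, median 0.18), subunits of the proton pump (25 tested, median 0.13) and the factors Tfeb, Tfe3 and Mitf (median 0.38) also had 0 genes past the threshold in germ cells, with 3, 2 and 1 higher at an unadjusted p under 0.05, where 6.11% of all genes were. The 2 of 25 pump subunits are near that share. Tfeb differed by 0.66 ± 0.24 (limma adjusted p = 0.483). Of 20 cathepsin inhibitors 1 rose, Ahsg, a plasma protein of the cystatin superfamily (2.38 ± 0.38, limma adjusted p = 0.0419), and the median of the list was -0.09. At an unadjusted p under 0.05, 5 of the 20 were higher and 1 was lower, against 6.11% and 1.23% of all genes. Cstb, the intracellular cystatin B, differed by 0.91 ± 0.26 (limma adjusted p = 0.273), and Cst3, the secreted cystatin C, by 0.41 ± 0.18 (limma adjusted p = 0.626). Cst8, a cystatin of the male reproductive tract, was at 4.36 ± 0.10 in KO germ cells and 4.91 ± 0.30 in control germ cells (SD, n = 3 each). In the Sertoli fraction none of these lists had a gene past the threshold between KO and control mice.

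Between the fractions of KO mice 28 of 35 other hydrolases, 11 of 15 membrane proteins, 18 of 25 pump subunits and 8 of 13 transport genes rose in the Sertoli fraction, and 2, 2, 5 and 2 fell (37.9% of all genes rose and 37.1% fell). In control mice the counts were 30, 10, 17 and 8 risers and 2, 1, 4 and 3 fallers (39.8% of all genes rose and 36.5% fell). Of 20 cathepsin inhibitors 8 rose and 9 fell in either genotype, which is near the shares of all genes. Cstb rose by 4.94 ± 0.26 in control mice, while Cst8 fell by 8.98 and Cst9 fell by 8.03 on the log2 scale. Of the lysosome factors Tfe3 and Mitf rose in both genotypes.

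Some lists of markers of other cell types also had higher medians in KO than in control germ cells, with 1 of their genes past the threshold. In bulk fractions more cells of a type and more RNA per cell cannot be told apart. None of the 17 macrophage and leukocyte markers passed in limma between KO and control germ cells, but 14 had a higher mean in KO mice, 8 of them at an unadjusted p under 0.05, with a median difference of 0.76 (over all genes 45.5% had a higher mean and 6.11% were higher at that p). Their mean level lay between -1.93 and -1.10 in KO germ cells and between -2.66 and -2.07 in control germ cells, without overlap. Tyrobp differed by 2.04 ± 0.48 and Cd14 by 1.24 ± 0.29 (limma adjusted p = 0.159 for both). Lyz2, the lysozyme of macrophages, was well above background on 3 arrays of KO germ cells and on 1 of control germ cells. Adgre1, a surface marker of mouse macrophages, differed by 0.24 and Csf1r, the receptor for macrophage colony-stimulating factor, by 0.76 with overlapping groups.

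Leydig cell markers were all higher in KO germ cells (6 of 6, median 1.35). At an unadjusted p under 0.05, 3 of the 6 were higher (6.11% of all genes). Their mean level lay between -0.42 and 0.46 in KO germ cells and between -1.85 and -0.51 in control germ cells. Cyp11a1, the enzyme that starts steroid synthesis, differed by 2.02 ± 0.34 (limma adjusted p = 0.0506). Of 7 fibroblast markers Pdgfra rose (1.25 ± 0.19, limma adjusted p = 0.0359), where 0.216% of all genes rose. The median of the list was 0.84, the same as that of the cathepsins, and 5 of the 7 were higher at an unadjusted p under 0.05. The mean of the list lay between -3.24 and -3.01 in KO germ cells, and between -3.78 and -3.54 in control germ cells. Sertoli cell markers (median 0.56, 0 of 10 passed, 1 higher at an unadjusted p under 0.05) and peritubular myoid markers (median 0.63, 0 of 6 passed, 1 higher and 1 lower) had higher medians in KO germ cells too. Of the Sertoli cell markers 9 of 10 had a higher mean there (45.5% of all genes). Endothelial markers had a median of 0.32, osteoclast-type genes 0.01, spermatocyte markers -0.07 and spermatid markers -0.22, and none of these 4 lists had a gene past the threshold in limma. In the Sertoli fraction spermatid markers had a median KO minus control difference of -1.09, with 9 of 10 lower and 0 past the threshold. At an unadjusted p under 0.05 limma found 6 of these 10 lower and 0 higher there, where 2.38% of all genes were lower. The part of these cell types in the cathepsin differences was not tested.

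Between the fractions the same lists did not all run with the cathepsins. The macrophage and leukocyte list had its low mean levels in the Sertoli fraction of both genotypes, between -3.85 and -3.30 in KO mice and between -4.10 and -3.03 in control mice. Its median difference was -2.30 in KO mice and -1.40 in control mice. The lowest difference of any of its genes was -9.29 in KO mice and -9.42 in control mice, and such a gene draws the mean down. In KO mice 1 of its 17 genes rose and 11 fell there (37.9% of all genes rose and 37.1% fell). In control mice 5 rose and 9 fell (39.8% of all genes rose and 36.5% fell). In control mice Mrc1, the mannose receptor of macrophages, fell by 4.48 on the log2 scale, and Csf1r rose by 3.65 ± 0.38. Of 6 osteoclast-type genes 3 rose and 1 fell in either genotype. Among all genes 37.9% rose and 37.1% fell in KO mice, and 39.8% and 36.5% in control mice. The 3 risers of 6 are near those shares. In control mice Nfatc1 (4.08), Tnfrsf11a (1.98) and Acp5 (1.96) rose and Dcstamp fell (-1.27).

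**Figure D5:**
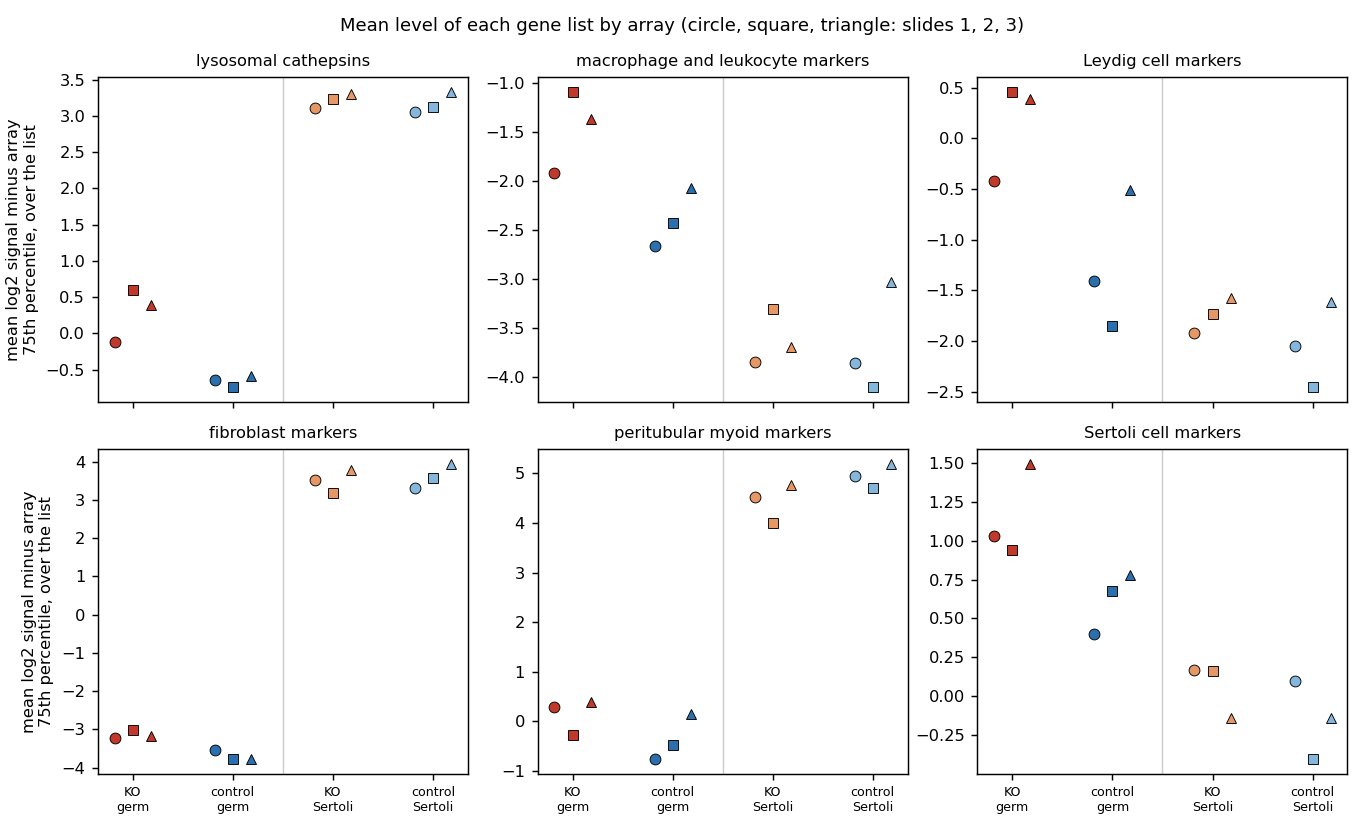
Mean level of each gene list on every array, as log2 signal minus the array's 75th percentile, with 1 panel a list and its own vertical scale. Points are arrays (circles slide 1, squares slide 2, triangles slide 3), and KO groups stand left of control groups. In germ cells the cathepsin list lies between -0.11 and 0.60 in KO mice and between -0.74 and -0.58 in control mice. The macrophage, Leydig, fibroblast and Sertoli lists are also higher in KO germ cells, without overlap. In the Sertoli fraction the macrophage list is low and the fibroblast and myoid lists are high.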

How the data were processed

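Germ and Sertoli cell RNA was Cy3-labelled and hybridised, per the labels' protocols, and scanned with Agilent Feature Extraction 10.7.3.1, per the file headers, which gives deposited intensity values (processed signal, spatially detrended and background-subtracted); the authors also deposited a log2 table, whose column medians of 8.292 to 8.293 are nearly equal. The submitters' processing notes name limma. Spots flagged as outliers were dropped. Processed signals were averaged by probe, divided by the array's 75th percentile and put on the log2 scale. Kept were the 30533 of 39429 probes that stood well above background in every array of some group, and the brightest probe stood for each gene. Of all probes 26055 matched RefSeq names (GRCm38.p6) and 13374 kept the file's name. Differences were fitted with limma 3.58.1 in R 4.3.3 over 4 group means and all 12 arrays. On simulated data for the germ cell comparison (25029 genes), 81% of changes of 3 log2 units and 22% of changes of 1 unit were recovered, with 3 false calls. The number of arrays limits the precision.

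Each mouse gave both fractions, so mouse numbers pair the arrays. Deviations of a mouse's 2 arrays correlated between -0.16 and 0.46 over genes, and the fitted correlation within a mouse was 0.126. The normexp alternative used the median signal, since the planned mean signal was not used here, without spots of uneven background. The cathepsins and lists were chosen with earlier results of these data known. All 10 cathepsins are named in every comparison. Of other lists, at most 5 genes past the threshold or the 3 of smallest p could be named, and a few markers (Adgre1, Csf1r, Cst3, Cst8, Cst9, Cstb, Lyz2, Mrc1) that fell outside this rule in a comparison were chosen after their values were seen. For each cathepsin the 3 genes nearest in pattern are named. Some genes that these rules name are not reported here.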

Additional observations from a re-analysis of the deposited data

How the results depend on the processing

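Directions and calls were compared over 19 alternative settings, named here where they moved a value, and the restriction to the groups compared was not run for the interaction, which needs all 4 groups. Without both mice titled het the 1 control mouse left was assumed to vary like the other groups. The 55 genes called between KO and control germ cells became 25 under normexp background correction, 28 under median scaling, 28 with no filter on dim probes, 1 with 8-month mice only, 1 without both mice titled het, 1 with only the groups compared, and 3 to 130 when 1 mouse was left out (130 without mouse 120). The 1 cathepsin that rose there became 0 under normexp, median scaling, no filter, slide as a block, 8-month mice only, without both mice titled het and with only the groups compared. It became 2 under quantile normalisation and in the deposited log2 values (Ctsd and Ctsz), 3 with probes above background on all arrays (Ctsk, Ctsd and Ctsz), and 0 to 1 when 1 mouse was left out, the 1 without mouse 120 being Ctsb (1.33, limma adjusted p = 0.0396). Ctsl in germ cells turned to -0.29 without both mice titled het. Between KO and control Sertoli cells 0 genes were called, 5 without both mice titled het, and 0 to 5 when 1 mouse was left out (5 without mouse 99). The cathepsin differences near 0 there changed sign. Normexp gave 0.023 for Ctsz, 0.014 for Ctsb and 0.059 for Ctsh, quantile normalisation 0.15 for Ctsl, 0.13 for Ctsz, 0.051 for Ctsd, 0.12 for Ctsb and 0.13 for Ctsh, and the deposited log2 values 0.15 for Ctsl, 0.13 for Ctsz, 0.057 for Ctsd, 0.12 for Ctsb and 0.13 for Ctsh. Median scaling gave 0.064 for Ctsz, 0.021 for Ctsb and 0.064 for Ctsh, and leaving out both mice titled het 0.14 for Ctsl, 0.026 for Ctsz, 0.086 for Ctsb, 0.18 for Ctsh and 0.14 for Ctsk. Leaving out 1 mouse gave -0.23 to 0.018 for Ctsl, -0.12 to 0.14 for Ctsz, -0.12 to 0.00014 for Ctsb, -0.11 to 0.069 for Ctsh, -0.29 to 0.00050 for Ctsk and -0.46 to 0.45 for Ctss. Between the fractions the KO fall of Ctss (1 faller) became 0 under median scaling (limma adjusted p = 0.051). In control mice Ctsf turned to -0.081 with 8-month mice only (-0.081 to 0.41 when 1 mouse was left out) and Ctss to -0.52 without both mice titled het (-0.21 to 0.29 when 1 mouse was left out). The 2 genes called for the interaction became 1 under quantile normalisation, median scaling and the deposited log2 values, 4 with probes above background on all arrays, 0 with 8-month mice only, 0 without both mice titled het, and 0 to 3 when 1 mouse was left out. The interaction of Ctsc was 0.033 under normexp, 0.014 under quantile normalisation, 0.14 under median scaling, 0.023 in the deposited log2 values, 0.59 with 8-month mice only, and -0.42 to 0.56 when 1 mouse was left out. The interaction of Ctsf was 0.092 under median scaling, 0.16 with 8-month mice only and -0.34 to 0.15 when 1 mouse was left out, and that of Ctsl was 0.43 without both mice titled het. With mouse as a replicate block, for the pairing of the fractions, the calls of cathepsins stayed at 1 in germ cells, 0 in Sertoli cells, and 8 risers between the fractions of either genotype, and 19778 genes were called in control mice against 19113 without the block. Where a setting used fewer mice or genes its calls rest on fewer values, and otherwise the cause was not tested. Median scaling moved the median of all genes in germ cells to -0.15, against -0.04.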
